A study of Mus musculus with 6 samples.

Results

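The level of transcripts in the adult mouse brain was described here from the 3 arrays of wild-type animals in a series of 6, 1 array per brain. All entries with exactly 1 gene symbol in the platform annotation were taken and the control entries left out, which gave 10833 of 12422 probe sets for 8251 genes. No selection on signal was made, and no group was tested against another. The wild-type animals were male C57BL/6J mice labelled NCAM +/+. Animals 1 and 2 were 2 months old and animal 3 was 3 months old. RNA was taken from the total brain after cervical dislocation. The other 3 arrays, from males of the same background and the same ages with a constitutive knockout of Ncam, the gene of the neural cell adhesion molecule, served only as further brains set beside the wild-type values. The age of animal 3 and the animal itself cannot be told apart, since no other wild-type animal was 3 months old.

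A whole brain mixes neurons, which signal through vesicle release and ion channels, with astrocytes, which clear transmitters and supply lipids, and oligodendrocytes, which wrap axons in myelin. Microglia are the resident immune cells, endothelial and mural cells form the vessels, and the choroid plexus makes cerebrospinal fluid. A signal from such a mixture is a sum over these cells, so more cells of a type and more RNA per cell cannot be told apart. Genes with housekeeping roles, such as ribosomal proteins, tubulins and glycolytic enzymes, are used by all of these cells.

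Among the knockout brains set beside the wild-type ones, animals 1 and 2 stood apart. Knockout animal 1 was high in pituitary genes: growth hormone, Gh, had 11613, 355 and 409.7 in knockout animals 1, 2 and 3. Knockout animal 2 was low in genes of the cerebellum, whose list had a median signal percentile of 38.6 there, against 80.2 and 81.0 in knockout animals 1 and 3. Car8, a protein of Purkinje cells, had 1311, 106 and 1803, and Zic1, a transcription factor of granule cells, had 1963, 825 and 2293. Spread, shared top probe sets and the activity-induced list in the knockout brains are therefore also given without these arrays.

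The signal of a probe set depends on how well its probes bind and on which transcript forms they read, as well as on the level of the gene, and this was measured in genes that had several. Among 2073 genes with 2 or more probe sets, the 3311 pairs within a gene differed by a median of 1.47 on the log2(signal + 16) scale, or 2.77-fold. Pairs of probe sets of any genes differed by a median of 1.94, or 3.84-fold. The gap within a gene exceeded 1 log2 unit in 62.6% of these pairs. The order from bright to dim below is therefore an order of probe sets and does not rank transcripts by number. Apoe, which encodes the main lipid carrier made by astrocytes, had a signal of 10700.0, 9621 and 10883 in animals 1, 2 and 3 on its brighter probe set and a mean of 10.1 on another. Stmn1, a regulator of microtubules, gave means of 5801 and 4.28, and the glutamate receptor gene Gria2 gave 3845 and 0.812. Such wide gaps stood also in Penk, Hsp90aa1, Snrpb, Gnas and Ndufb2, the other genes with the largest gaps below a bright probe set. A dim value of a gene with only 1 probe set is thus a weak statement about its transcript. In what follows a gene stands at its brightest probe set, and its percentile is its place among the 8251 genes, with 100 the brightest.

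**Figure D1:**
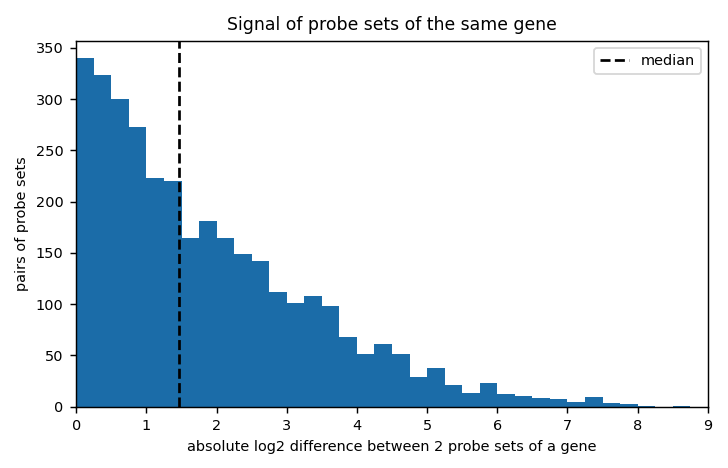
Gaps between probe sets of the same gene, on the log2(signal + 16) scale of the means over 3 wild-type animals, as a histogram of the number of pairs in steps of the absolute difference. The dashed line marks the median, 1.47, and the tail reaches 8.64 in Apoe.

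The signals spanned a wide range in the same way in all 3 animals. The median signal was 137, 135 and 138 in animals 1, 2 and 3. The brightest 1% of probe sets held 16.1%, 15.6% and 15.9% of the summed signal. A signal over 1000 was reached by 959, 969 and 952 probe sets, and 3371, 3470 and 3380 stayed under 50. Means over the animals were 9.79 at the 10th percentile of probe sets, 137 at the 50th, 903 at the 90th and 4126 at the 99th. Of the 100 brightest probe sets 88 were among the 100 brightest in each animal, and 96 were so in the mean of the knockout brains too (94 without knockout animal 1, 93 without knockout animal 2). The boundary was not a step, since the last of the 100 had a mean of 4259 and the next 4246.

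The brightest genes encoded parts of the translation machinery, the cytoskeleton, energy metabolism and the nerve ending. Rpl41, a protein of the large ribosomal subunit, had the brightest probe set, with 11493, 12025 and 13512 in animals 1, 2 and 3. Eef1a1, the elongation factor that brings aminoacyl-tRNA to the ribosome, followed with 12054, 11104 and 12435. Their ranges overlapped, so these neighbours in the order did not differ beyond their spread. Also of translation were Rps24 (mean signal 9442) and Rps28 (7609), of the small subunit, and Eef1a2 (6783), the elongation factor form of neurons and muscle. Tubulins were represented by Tuba1c (11348), Tuba1a (9236) and Tubb4a (6578), and actin by Actg1 (7835). The tubulin sequences are alike, and the probe sets of Tuba1c and Tuba1a carried suffixes that mark less specific probes, so each may also read its relatives.

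Genes tied to neurons stood beside these shared ones. Snap25, a SNARE protein of vesicle fusion, had 8370.2, 8409 and 8401, which was the narrowest spread of all 500 brightest probe sets. Dnm1, the dynamin that pinches off vesicles at the nerve ending, had 9348, 8594 and 8684. App, the amyloid precursor protein, and Prnp, the prion protein, are membrane proteins and had means of 9836 ± 774 and 9366 ± 448 (SD, n = 3). Gnas, the alpha subunit of the stimulatory G protein, reached 10961 ± 745. Ndrg4 (9379) and Zwint (9295), known also as a kinetochore protein, belonged to the same range.

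Astrocyte and metabolic genes filled most of the rest of the brightest 30. Cst3, the secreted protease inhibitor cystatin C, had 8399.7, 8443 and 8677. Cpe, a peptidase that trims prohormones, had 8747, 7722 and 7125, with animal 1 highest and animal 3 lowest. Ckb, the brain creatine kinase that buffers ATP, was spread more widely, at 8423, 7313 and 9814, and was highest in animal 3. The glycolytic enzymes Aldoa and Pkm had means of 6724 ± 230.2 and 6963 ± 886. Fth1, which stores iron, stood at 9620.4 ± 155. Scd2, a desaturase of fatty acids, stood at 7771 ± 328. Ptgds, the prostaglandin D synthase of the meninges and choroid plexus, had 6685, 6074 and 8120.4 and was highest in animal 3. Remaining members were Tpt1, Hsp90aa1, Ywhaz, Rac1 and Gsk3a, with means from 6489 to 9269.5. The ranges over the animals overlapped in 28 of the 29 pairs of neighbours in this order, as the plot of the brightest genes by animal shows.

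**Figure D2:**
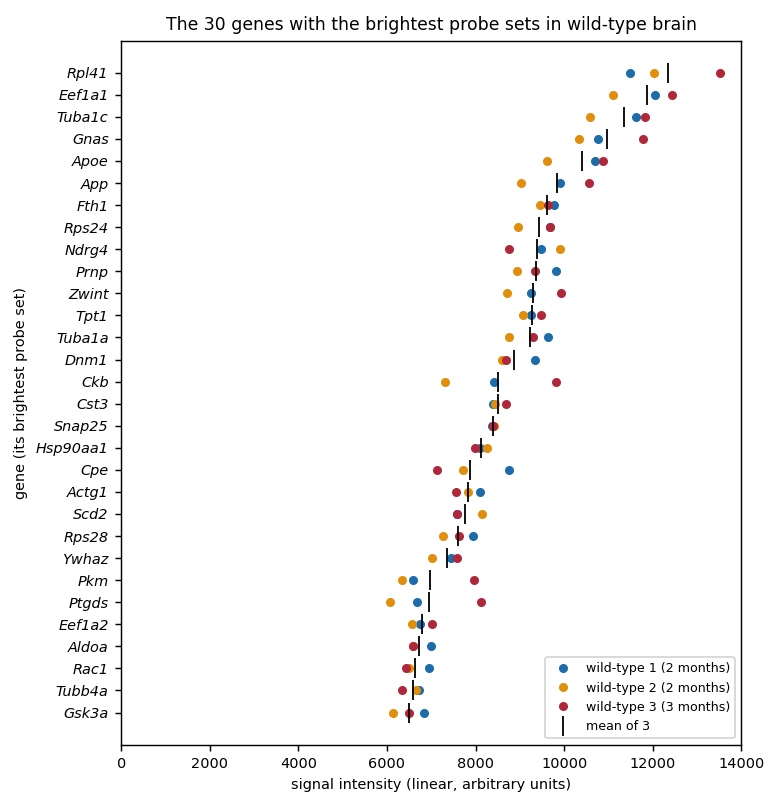
Signal of the 30 genes with the brightest probe sets in each of the 3 wild-type animals, with genes ordered by mean. Means ran from 6489 (Gsk3a) to 12343 (Rpl41), and the points overlap in 28 of the 29 pairs of neighbours.

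The labelled tissue was checked against 36 lists of marker and pathway genes, with 930 genes in all, of which 706 were measured and 54 stood in 2 or more lists. Lists of brain cell types had median percentiles from 24.6 (blood cells) to 95.5 (astrocytes), and lists of other organs from 12.6 (lymphocytes) to 33.5 (muscle). The median percentile over all genes is 50 by construction. Apart from blood cells, each cell type list of the brain had a higher median than every list of another organ. The lowest of them was that of monoamine and acetylcholine neurons at 40.8. The median over brain cell types was 46.3 percentile points above that of other organs.

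Neuronal genes had a median percentile of 95.02, and 18 of the 26 measured genes were in the brightest 10% of genes. Besides Snap25, the brightest were Rtn1 (5747 ± 563), a reticulon of the endoplasmic reticulum, and Vsnl1 (4976 ± 256), a calcium sensor. Gap43, a protein of growing axon ends, had 2742, 2684 and 2138 and Nefm, a neurofilament subunit, had 340.1, 442 and 352. Nefm was the lower of these in signal, and each varied by an SD under 0.2 on the log2 scale. Map1b, a microtubule protein abundant in axons, had only 56.0 ± 7.06 and was the dimmest of the list.

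Genes of glutamatergic and of GABA neurons stood at medians of 73.1 and 88.7. Gria2, the AMPA receptor subunit that limits calcium entry, had 3887, 4028 and 3622 and was the only glutamatergic gene in the brightest 10%. Tbr1, a transcription factor of cortical projection neurons, had 1102, 1051 and 818. The NMDA receptor subunit Grin2a was at 33.6 ± 18.9, the lowest of this list. Among GABA neuron genes, Penk, the enkephalin precursor, had 4759.5, 4791 and 4645. Pvalb, the calcium buffer of fast-spiking interneurons and Purkinje cells, had 3854, 3477 and 4369, and the peptide Cck had 3494, 3158 and 3189. Pvalb was spread the most of them and was highest in animal 3. Dlx1 and Dlx2, transcription factors that direct interneuron development, were the dimmest, with means of 80.1 and 57.3. Gad2, which makes GABA, had 170.2 ± 31.0, whereas Gad1 and Slc32a1 of the same list had 3228 ± 120 and 2982 ± 128. Genes of monoamine and acetylcholine neurons were lower, with Ache, the enzyme that breaks down acetylcholine, at 688 ± 84.8. Th, the rate-limiting enzyme of catecholamine synthesis, was at 214, 244 and 287 and the dopamine receptor Drd2 at 256, 225 and 235.

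Glia were led by the astrocytes, of whose 22 measured genes 13 were in the brightest 10%. Apart from Apoe, Cst3 and Cpe, this list held Gfap, the intermediate filament of astrocytes, at 626, 804 and 593, and the metallothionein Mt2, a metal-binding protein, at 5862, 5808 and 4248. Mt2 was lower in animal 3 than in the other wild-type animals and than in the knockout brains, which had 5711, 5174 and 5205. S100b, a calcium-binding protein, had 918, 1212 and 845. Ptn, a growth factor, and Slc4a4, a bicarbonate transporter, were the dimmest, at 118 ± 10.9 and 229 ± 19.0. Oligodendrocyte genes stood at a median of 81.2. Mbp, the myelin basic protein, had 6006, 5954 and 5989 and Mobp, another myelin protein, had 4498, 4511 and 4134. Cldn11, the claudin of myelin, was at 1097, 1391 and 867, and Mog, a glycoprotein of the outer myelin surface, at 392, 481 and 369. Animal 3 was lowest in 12 of the 17 oligodendrocyte genes with signals in the upper 60% of probe sets, called kept in what follows, against 35.9% of all kept genes. It was also lowest in 12 of 22 astrocyte genes, 14 of 27 cytoskeletal genes and 12 of 23 genes of calcium and cAMP signalling. The median deviation of the oligodendrocyte list from the mean of the animals was 0.01, 0.06 and -0.05 on the log2 scale. Cnp, a myelin enzyme, had a mean of only 13.7 on its single-symbol probe set.

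Microglia, vessels and choroid plexus lay near the middle of the order. Microglial genes had a median percentile of 54.1, led by the protease Ctss (1088 ± 38.5) and the complement genes C1qa (881 ± 53.6) and C1qc (814 ± 33.6). Csf1r, the receptor on which microglia depend, had 567, 634 and 436. The leukocyte marker Ptprc had 9.10 ± 1.86 and the receptor chain Fcer1g 12.4 ± 8.77. Vascular and meningeal genes stood at 56.5. Bsg, the basigin of the blood-brain barrier and of other cells, had 3207 ± 98.5 and Igf2, a growth factor of meninges and choroid plexus, had 1615 ± 226. Endothelial Cdh5, the cadherin of vessels, had 82.3 ± 19.0 and the receptor Tek 58.9 ± 9.79. The choroid plexus list stood at 48.2. Ttr, the thyroxine carrier that choroid plexus secretes, had 1734, 1633 and 2031, and Foxj1, the transcription factor of ciliated ependyma, had 257, 236 and 235. The water channel Aqp1 was dim at 70.1 ± 22.1.

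Genes of blood cells had a low median of 24.6, and 2 of 12 were in the brightest 10%. Those were the globins: Hba-a1 had 3283, 4583 and 3216 and Hbb-b2 had 1068, 2081 and 768 in animals 1, 2 and 3. Both were highest in animal 2. Neutrophil and erythroid genes such as Camp (105 ± 5.24), S100a9 (11.7 ± 1.87) and Car1 (14.8 ± 0.783) were low. The part of blood in the values of animal 2 was not tested.

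**Figure D3:**
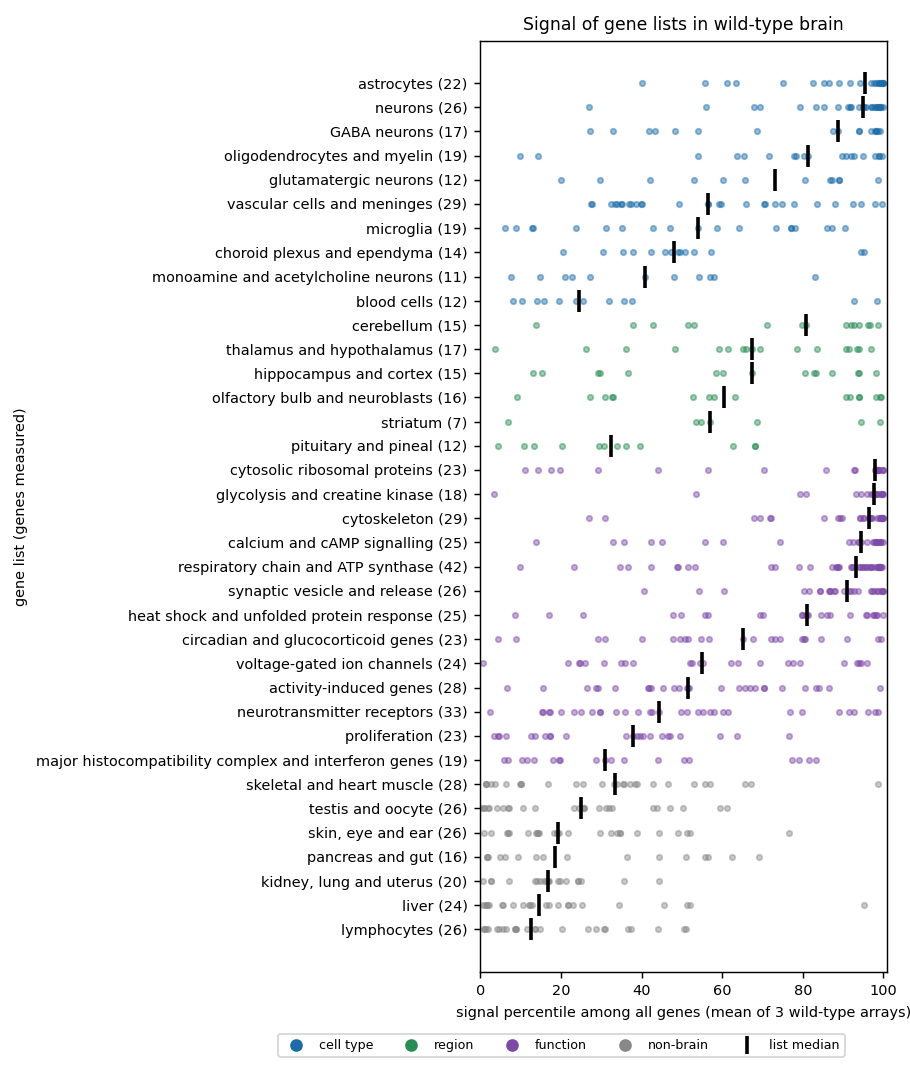
Signal percentile among all genes, by the mean of 3 wild-type arrays, of each measured gene (points) in the 36 lists, coloured by kind of list (cell type, region, function, other organs), with the list's median as a black bar. The medians of neurons (95.02) and astrocytes (95.5) lie near the top, and those of other organs lie between 12.6 and 33.5.

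Genes tied to brain regions gave medians of 80.7 for cerebellum, 67.4 for thalamus and hypothalamus, 67.3 for hippocampus and cortex, 60.5 for olfactory bulb and neuroblasts, 56.9 for striatum and 32.4 for pituitary and pineal. Since 7 genes made up the striatal list, its median is coarse. Zic1 had 2390.4, 2328 and 2256 and Car8 had 1432, 1161 and 1066. Cerebellum-linked Pcp4 was at 20.7 ± 8.34 and was the dimmest of its list. Nrgn, neurogranin of forebrain dendrites, had 1566, 1473 and 1560.5, and Lmo4, a cofactor of cortical transcription, had 1496, 1664 and 1316. Sst, somatostatin of interneurons and the hypothalamus, had 2432, 2264 and 2480.4. Apart from the dim Pcp4, these markers had signals over 1000 in every wild-type animal, whereas Zic1 and Car8 were under 1000 in knockout animal 2.

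The pituitary and pineal list had a median SD of 0.32 on the log2 scale over its 6 genes among the kept ones, against 0.10 for thalamus and hypothalamus. Pomc, its most variable member, is the precursor of stress and appetite peptides and had 34.4, 128 and 125, with animal 1 lowest, and 704, 172 and 133 in the knockout brains. Gh, growth hormone, had 377, 222 and 284 and Prl, prolactin, had 43.9, 44.9 and 109. In the knockout brains, Prl had 2141, 131 and 161, and the Gh values are those given above, both far higher in knockout animal 1. Avp, vasopressin, a variable member of the hypothalamic list, had 265, 194 and 389. The animals did not keep 1 order over these genes: Gh was highest in animal 1, and Prl and Avp in animal 3. Lhb, the beta chain of luteinising hormone, was steadier at 356 ± 22.2, and Tph1 and Gnrhr were at 15.6 and 7.09. The part of attached pituitary tissue in these values was not tested.

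By function, cytosolic ribosomal proteins had the highest median percentile, 97.96, before glycolysis and creatine kinase at 97.6 and the cytoskeleton at 96.4. Yet 6 of the 23 measured ribosomal genes were in the dimmer 50% of genes, among them Rps15 (21.1 ± 10.8) and Rpl32 (15.7 ± 0.727). Calcium and cAMP signalling stood at 94.4, led after Gnas by Prkar1a (5501 ± 196), a regulatory subunit of protein kinase A. The respiratory chain and ATP synthase stood at 93.1, with Cox6a1 (6375 ± 241) and Cox6c (5019 ± 381), subunits of cytochrome oxidase, and Slc25a4 (5332 ± 143), the exchanger of ADP and ATP. Synaptic vesicle genes stood at 90.8, and 26 of 26 had signals in the upper 60% of probe sets. Atp6v1b2, a subunit of the proton pump that fills vesicles, had 6169, 5742 and 5921. Bsn, a scaffold of the release site, was the dimmest of them at 121 ± 16.5.

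Probe sets of receptors and channels lay far below those of the release machinery. Neurotransmitter receptors had a median percentile of 44.2 and voltage-gated channels of 54.96. After Gria2, the brightest receptor genes were Gabbr1 (3154 ± 73.1), a subunit of the GABA-B receptor, and Glrb (2113 ± 306), the beta subunit of glycine receptors. Oprm1, the mu opioid receptor, was at 5.12 ± 1.11 and Cnr1, the CB1 cannabinoid receptor, at 23.8 ± 1.75. Among channels, Hcn2, of the pacemaker current, had 1911, 2033 and 2217, Scn1a, a sodium channel, had 1570.4, 1735 and 1579, and Kcnma1, a potassium channel opened by calcium, had 1677, 1548 and 1393. These were similar in the 3 animals. Kcnj6 and Scn3a were the dimmest channels, at 38.1 and 2.56.

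Ncam1, the gene targeted in the study, had 3 probe sets. The brightest gave 1346, 1448 and 1216 in the wild-type animals, at rank 641 of 10833. As a check of the labels, the same probe set had 276, 209 and 327 in the knockout brains, all lower. The others had means of 147 and 6.93. Animal 3 was lowest on the brightest, and the gap between the probe sets was far larger than that between animals.

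Heat shock and unfolded protein genes had a median of 81.1, with Hsp90aa1, a chaperone, at 8106, 8249.6 and 7980.5 and Hspa8, the constant form of Hsp70, at 3576, 3899 and 3226. Hspa1a, the inducible form, had 306, 311 and 518, highest in animal 3, and 258, 426 and 725 in the knockout brains. Major histocompatibility and interferon genes were low at 31.0. H2-D1 (692 ± 47.1), a class I molecule, and B2m (639.7 ± 42.5), its light chain, were the brightest, and Ifit1 and Ifit2, induced by interferon, the dimmest at 9.001 and 9.99. Genes of proliferation were at 37.9. Pcna, the DNA clamp also used in repair, had 512 ± 86.3, whereas Top2a and Bub1, made in dividing cells, were at 7.13 and 6.25.

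Lists of other organs held the dim end. In lymphocytes, 24 of 26 genes were in the dimmer 50%, with Ifng and Il2 at 2.94 and 2.86. Liver genes had a median of 14.5, and fibrinogen genes Fgb and Fgg were at 3.24 and 2.63. Genes of kidney, lung and uterus stood at 16.9, of pancreas and gut at 18.5, of skin, eye and ear at 19.4 and of testis and oocyte at 25.03, with 0 genes of these lists in the brightest 10%. Ttr of the liver list and Pvalb of the muscle list, which are brain genes as well, were the bright members of these lists. The 10 dimmest genes of all, Cts7, Prl7d1, Dbf4, Tex21, Meox2, Tacc3, Sycp3, Eya4, Btc and Gna14, had means from 0.543 to 1.02. These include genes of placenta (Prl7d1, Cts7), of meiosis (Sycp3) and of embryonic mesoderm (Meox2). Of the 100 dimmest probe sets 70 carried a suffix of less specific probes, against 35 of the 100 brightest and 21.0% of all. No detection calls were used, so a low signal is not a statement of absence.

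The 3 animals were close to each other. On the log2 scale, the 6500 probe sets in the upper 60% by mean, with a mean log2(signal + 16) of at least 6.59, correlated at 0.985 between animals 1 and 2, 0.980 between 1 and 3 and 0.979 between 2 and 3. These probe sets belonged to 5508 genes, and the correlations share each gene's probe affinity. The median SD over the animals was 0.11 log2 units, or 8.12% of the signal, and 43.8% of the probe sets were under 0.1. It fell with signal from 0.16 in the dimmest of 5 equal groups of these probe sets to 0.075 in the brightest. An SD over 0.5 was reached by 96 probe sets of 96 genes, 1.48% of the 6500, and 60 of them were in the dimmest group.

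**Figure D4:**
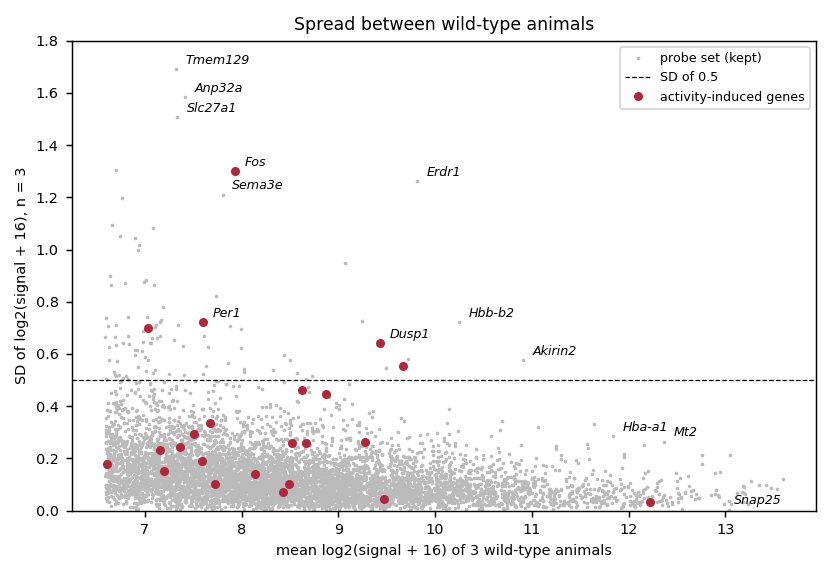
SD over the 3 wild-type animals of log2(signal + 16) against the mean for each of the 6500 probe sets (grey), with the activity-induced genes in red, the limit of 0.5 dashed and some genes named. The median SD falls from 0.16 in the dimmest of 5 equal groups to 0.075 in the brightest, and 96 probe sets lie over the limit.

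Bright genes that were steady in the wild-type animals gave the other end. Snap25 had the smallest SD of the 500 brightest probe sets, 0.0036, and among the 10 steadiest was Mbp with 6006, 5954 and 5989. Tmem30a, Mlf2, Retreg2, Higd2a, Atp6v0e2, Rnf227, Dnajc8 and Sumo3 were the remaining members. They cover a flippase subunit, mitochondria, proton pumping, splicing and protein tagging. These are the smallest of 500 SDs, each from 3 values. In the knockout brains the SD was 0.084 for Snap25, 0.099 for Tmem30a, 0.092 for Retreg2 and 0.108 for Rnf227. It was 0.0083 for Mlf2, 0.014 for Mbp and for Sumo3, 0.027 for Higd2a, and 0.047 for Atp6v0e2 and for Dnajc8. In the same bright range of the wild-type animals, the largest spreads were at most 0.58. Prkar1b, a subunit of protein kinase A, had 1429, 1411 and 2151 and was highest in animal 3, as on its other probe set at 3210.0, 3255 and 3879.8. Pkm, a glycolytic enzyme, had 3596, 3663 and 2432 on a probe set that marks less specific probes, lowest in animal 3, and 6578, 6333 and 7976 on the brighter one, highest in animal 3. The probe sets of Pkm thus moved in opposite directions, and the brighter one also carried a suffix of less specific probes. Also in this group were Ngef (2472, 1644 and 2350.0), Skp1 (1889, 1754 and 1259), Rab6a (3072, 2499 and 3558), Naca (2079.5, 2075 and 1530.5) and Laptm4a (5572, 4263 and 4011), and Mt2 and Hba-a1, given above.

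Animal 3 was the farthest from the other animals in 42.2% of the 6500 probe sets and in 43 of the 96 over the limit. Animals 1 and 2 were the farthest in 30 and 23 of the 96. Besides its age, animal 3 had the highest actin control ratio, 3' over 5' signal, with 1.09, 1.08 and 1.20 in animals 1, 2 and 3. The Gapdh ratio was 0.779, 0.798 and 0.768. The part of RNA quality in the values of animal 3 was not tested.

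The only one of the 36 lists with a median deviation over 0.2 in animal 3 was that of genes induced by neuronal activity. These immediate early genes are switched on within minutes of calcium entry or growth factor signals, through CREB, which binds the motif TGACG and its full form TGACGTCA, and through SRF, which binds the CArG box. They code mostly for transcription factors (Fos, Junb, Egr1, Egr2) and for brakes on signalling (Dusp1, Dusp6). The list held 28 measured genes, 23 of them in the upper 60% of probe sets. Its median difference between animal 3 and the mean of the other wild-type animals was 0.42 on the log2 scale, against 0.005 over all 5508 genes. Animal 3 was highest in 18 of the 23 genes, against 37.7% of all genes. Genes over 0.5 numbered 8, against 1.92% of all genes, and 0 lay lower by that much.

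Fos, a subunit of the AP-1 transcription factor, had 114, 147 and 668 in animals 1, 2 and 3. A dim Fos probe set that was not kept had 34.0, 39.1 and 40.9, with little rise in animal 3. Egr1, a zinc finger factor of plasticity, had 616, 661 and 1249. Dusp1, the phosphatase that inactivates MAP kinases, had 513, 522 and 1138. Animal 3 was the highest in all of these. Egr2, a relative of Egr1, had 83.7, 82.7 and 214. Per1, a light- and activity-induced clock gene, had 118, 142 and 326. Junb, a partner of Fos, had 162, 163 and 252 on its brighter probe set and 53.0, 54.4 and 189 on the other. In these genes, too, animals 1 and 2 were close and animal 3 stood apart.

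The knockout brains, in which the animal with replicate number 3 was also 3 months old, had a like pattern. Fos was at 208, 304 and 809 there, Dusp1 at 607, 526 and 1178 and Egr1 at 744, 1081 and 1279.6. The 3-month-old knockout animal was highest in 20 of the 23 genes, against 36.0% of all genes, with a median difference of 0.42. It exceeded 0.5 together with animal 3 of the wild type in 6 genes. Without knockout animal 1 the median was 0.43 and the 3-month-old was higher in 21 of 23 genes, against 50.04% of all genes. Without knockout animal 2 these were 0.46 and 21, against 49.2%, and 5 genes exceeded 0.5 in both groups in either case. Other members moved little: Jund, another AP-1 subunit, had 4868, 4644 and 4746. Nptx1, a secreted pentraxin of synapses that is not in the list, had 697, 616 and 1324, high in animal 3, but 827, 560.4 and 710.4 in the knockout brains. Sgk1, a kinase induced by glucocorticoids, had 571, 558 and 1100.4 and 605, 561 and 579, which likewise was high in the wild-type animal alone. Circadian and glucocorticoid genes had a median percentile of 65.1. Among them Dbp, a target of the clock, had 209, 211 and 144. Dbp was lowest in animal 3. In both groups the age of the animal and the animal itself cannot be told apart.

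**Figure D5:**
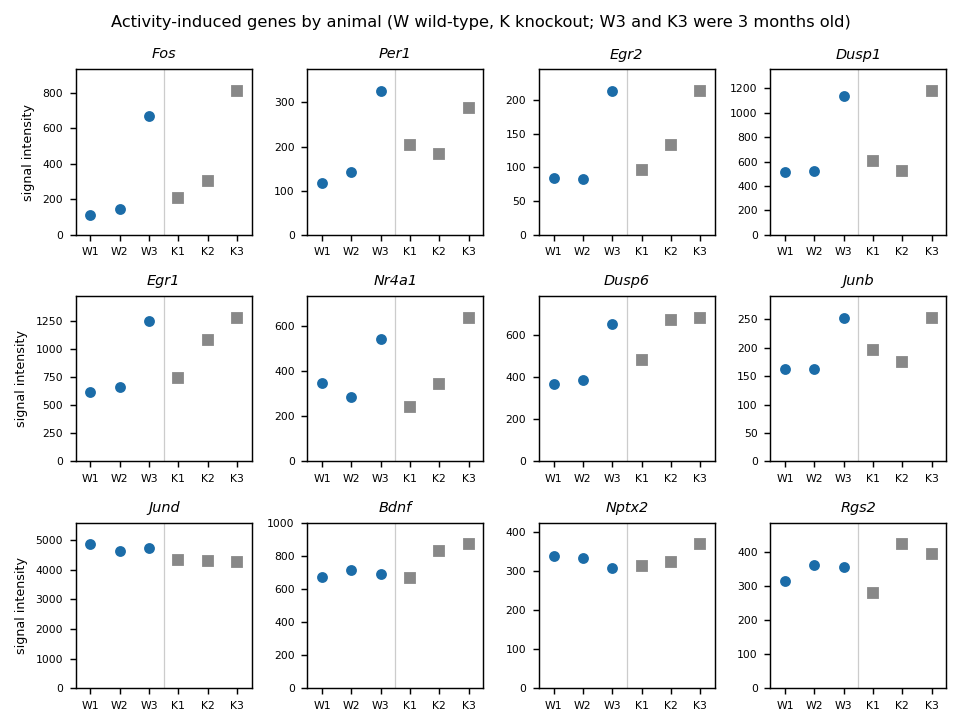
Signal intensity (linear axes from 0, 1 panel per gene) of 12 genes of the activity-induced list in each wild-type (W, circles) and knockout animal (K, squares), where W3 and K3 were 3 months old. Fos is at 668 in wild-type animal 3 against 114 and 147, and Jund lies near 4753 in all 3.

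Promoter windows of the list's genes were searched for these motifs, as a description of the list. The list was made of genes known to be induced by activity, so its motif shares say nothing about animal 3. Members that were high in animal 3 and members that were not were not compared. Windows are shown for Fos, Dusp1, Per1, Junb and Egr2, which had differences over 0.5 in animal 3. Egr1, Nr4a1 and Dusp6 also had differences over 0.5, and no window is shown for them. They are taken from RefSeq on assembly GRCm38.p6, as the 250 bases before the start, on the gene's strand from 5′ to 3′. Capitals mark TGACG on either strand and, in Egr2, the CArG box, which was searched on both strands.
Fos, chr12:85473640-85473889, plus strand: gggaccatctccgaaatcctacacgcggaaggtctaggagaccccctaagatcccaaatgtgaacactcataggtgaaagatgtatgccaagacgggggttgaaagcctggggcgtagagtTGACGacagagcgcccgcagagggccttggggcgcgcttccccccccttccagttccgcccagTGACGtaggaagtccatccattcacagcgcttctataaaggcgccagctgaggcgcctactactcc
Dusp1, chr17:26508473-26508722, minus strand: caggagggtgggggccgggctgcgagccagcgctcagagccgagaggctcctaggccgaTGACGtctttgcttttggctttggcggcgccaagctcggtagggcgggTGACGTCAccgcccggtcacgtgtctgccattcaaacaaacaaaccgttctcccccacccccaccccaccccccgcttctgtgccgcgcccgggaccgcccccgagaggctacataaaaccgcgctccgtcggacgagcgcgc
Per1, chr11:69099902-69100151, plus strand: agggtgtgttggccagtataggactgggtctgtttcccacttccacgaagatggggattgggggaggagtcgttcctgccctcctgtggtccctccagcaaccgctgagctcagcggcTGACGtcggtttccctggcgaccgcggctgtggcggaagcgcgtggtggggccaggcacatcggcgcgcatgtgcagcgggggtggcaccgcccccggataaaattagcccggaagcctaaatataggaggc
Junb, chr8:84978749-84978998, minus strand: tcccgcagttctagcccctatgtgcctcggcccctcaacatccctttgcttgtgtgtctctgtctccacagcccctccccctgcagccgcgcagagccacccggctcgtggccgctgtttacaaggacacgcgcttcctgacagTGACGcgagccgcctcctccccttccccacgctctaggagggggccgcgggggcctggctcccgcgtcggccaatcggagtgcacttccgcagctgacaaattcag
Egr2, chr10:67537619-67537868, plus strand: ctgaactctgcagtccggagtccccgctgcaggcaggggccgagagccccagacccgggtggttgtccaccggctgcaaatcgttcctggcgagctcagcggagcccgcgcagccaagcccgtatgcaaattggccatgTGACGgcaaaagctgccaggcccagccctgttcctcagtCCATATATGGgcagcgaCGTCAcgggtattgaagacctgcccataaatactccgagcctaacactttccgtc

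In these windows Fos held 2 copies of TGACG, Dusp1 held 3, and Per1 and Junb held 1 each. Dusp1 also held 1 TGACGTCA, and Egr2 held 2 copies of TGACG and 1 CArG box. Over the list, 13 of the 19 kept genes with a promoter in the table held TGACG in some window, against 31.7% of 4442 kept genes. Windows on 1 chromosome were left out of the search, so genes there are not in these counts. Genes with several starts have several windows, and per window the shares were 53.3% of 30 against 26.8%. Windows of a gene can overlap and count the same copies again, so they are not separate units. In Egr2, the windows from 67537620 and 67537680 overlap the shown one and held 2 copies of TGACG. Those from 67535249 and 67537316 held 0. TGACGTCA was found in 2 of the 19, Btg2 and Dusp1, against 3.04% of the kept genes. The CArG box was in 1 of them against 1.60%, CACGTG in 6 against 11.3% and TATAAA in 4 against 8.46%, each on both strands. These motifs overlap, since TGACGTCA holds TGACG on both strands. A match is a description of letters, not of binding.

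Where a gene over the limit had another kept probe set, that other was steadier. Of the 96, 29 had another probe set of the same gene among the 6500. In 0 of the 29 did that other exceed an SD of 0.5 (median 0.071, highest 0.46), against 1.48% of all 6500. Since the 96 were picked for a large SD and few of the 6500 exceed 0.5, a steadier other was likely beforehand. Tmem129, a ubiquitin ligase, had 369, 26.3 and 236 on the most variable probe set of all and 389, 381 and 387 on another. Anp32a, a histone chaperone and phosphatase inhibitor, had 89.98, 62.5 and 585 and 1274, 1157 and 1273. Rpl19, a ribosomal protein, had 165, 49.4 and 108 and 4089, 4192 and 4094. In each of these cases, the steadier probe set was the brighter.

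Genes with only 1 kept probe set allow no such comparison. Slc27a1, a fatty acid transporter, had 302, 255 and 32.4, and 233, 239.8 and 239 in the knockout brains, so animal 3 alone was low. Sema3e, a secreted guidance cue, had 344, 349 and 68.8 and 314, 383 and 295, again with animal 3 low. Vamp3, a vesicle SNARE, was likewise low in animal 3 at 174, 164 and 38.5. Scx, a transcription factor of tendon, had 242, 911 and 625, with no such order. Of the 96, 70 had a wild-type value outside the range of the 5 other arrays, and in 26 of them those 5 were steady with an SD under 0.25. These counts have no share over all 6500 beside them, and picking for a large SD favours such values. In the knockout brains the same 96 had a median SD of 0.37, against 0.14 for all of the 6500, and 33 of them were over 0.5 there too, against 2.78% of all. Without knockout animal 1 these were 0.31 against 0.14, and 34 against 3.95%. Without knockout animal 2 they were 0.32 against 0.11, and 28 against 2.92%.

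Erdr1, whose symbol stands for erythroid differentiation regulator, had 2108, 353 and 910.3, with animal 1 highest. A dimmer Erdr1 probe set had 172, 39.5 and 66.4, in the same order. H2-Eb1, a class II histocompatibility molecule, had 114, 249 and 196. Ada, adenosine deaminase, had 311, 249 and 95.6 and 70.8, 82.4 and 422, so that the animals of both groups spread widely. Hbb-b2, adult beta globin, was the brightest of the 30 most variable genes. With 3 animals an SD is itself known only roughly, and the number of arrays limits the precision of all of these values.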

How the data were processed

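Labelled cRNA from total RNA of every brain went onto a separate one-colour Affymetrix array, per the labels. The deposited unit is a linear signal intensity for every probe set, made by the authors with GCOS 1.4 per the submitters' processing notes. The signal algorithm was not given in the sources used here, nor was the scaling target. Scaling each array would hide a change in total RNA.

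The 66 control entries were removed. Of 12422 probe sets, 10833 had 1 symbol in the annotation of the platform (possibly outdated), 396 had several and 1193 none, and 10817 were found by Entrez identifier in RefSeq (GRCm38.p6). The mean and SD of 3 animals were computed on the signal, and spread on log2(signal + 16), which understates differences of dim genes. Spread was described for the 6500 probe sets at or above the 40th percentile of mean log2 signal (6.59, a signal of 80.5), with a limit of 0.5 on the SD that is a size and not a test. Probe sets whose name ends in _i_at, _r_at, _g_at, _f_at or _s_at were counted as less specific. Lists used 1 probe set per gene, the brightest. The labels describe separate individuals and give no culture or litter, and the number of arrays limits the precision. The number of columns left unused was 0. Python 3.11.15 with pandas 2.3.3 was used, and the spread calculation was tested on simulated data.

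The members and the lists were chosen with earlier results of these data known. Genes were named by rule: the 30 brightest and 10 dimmest genes, the 3 brightest, 2 dimmest and 3 most variable of each list, the 30 most variable, the 10 most and 10 least variable of the 500 brightest probe sets, the 8 largest gaps within a gene, and a set fixed by name. Btg2, Dusp6, Gad1, Nr4a1, Pck2, Polb, Slc32a1 and Ufd1 are not covered by it: their choice followed a look at their values.

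Alternatives left out each animal, normalised by quantiles, used only specific probe sets, pseudocounts of 1 and 64, other filters, an average over the probe sets of a gene, or the knockout animals in place of the wild-type ones.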

Additional observations from a re-analysis of the deposited data

How the results depend on the processing

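Of 66 alternative values 40 moved by less than a set limit and 26 by more. The limit was the SD between single animals for the share and for both gaps. For the median SD it was the SD of the values with an animal left out, which are alternatives themselves. For the activity-induced list it was a typical gene's spread between animals 1 and 2, and for counts 1.5 times. The gap between lists and the activity-induced median kept their sign. Shares, counts, absolute gaps and SDs have no sign to reverse. The share of the summed signal in the brightest 1% was 15.9%, with 14.5% from specific probe sets and 15.6% in the knockout animals. The gap between brain and other-organ lists was 46.3 percentile points, 46.1 to 47.8 with an animal left out, 39.3 with the mean percentile of a gene's probe sets and 45.5 in the knockout animals. The gap within genes was 1.47, 1.399 from specific probe sets, 1.94 and 1.00 with pseudocounts of 1 and 64, and 0.78 with the filter at the 60th percentile. The median SD of 0.11 became 0.076 to 0.10 with an animal left out, 0.097 with a pseudocount of 64, 0.096 with the filter at the 60th percentile, 0.13 with no filter and 0.14 in the knockout animals.

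The count of 96 probe sets over an SD of 0.5 was 94 to 122 with an animal left out, 50 from specific probe sets, 50 with a pseudocount of 64, 22 with the filter at the 60th percentile, 592 with no filter and 154 in the knockout animals. Chosen after seeing the data, the knockout animals were also taken without replicate 1 or 2. The share was then 15.7% and 15.6%, the gap between lists 46.2 and 45.6, the median SD 0.14 and 0.11, and the count over 0.5 was 235 and 168, from SDs of 2 animals. Fewer probe sets were counted with the stricter filter and more with none, and dim probe sets weigh less with the larger pseudocount. The cause of the other moves was not tested. The median of the activity-induced list in animal 3 was examined with alternatives chosen after seeing the data: it was 0.42, 0.35 to 0.45 with another animal left out, and 0.27 without Fos, Dusp1, Egr1, Egr2, Per1 and Junb.

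No paired analysis was possible because the results come from no test. Signal close to background limits the order among dim probe sets.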

Other observations

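Some of the brightest signals belonged to probe sets without exactly 1 symbol. Of the 100 brightest of all 12422 probe sets, 73 had 1 symbol, 15 several and 12 none. The brightest of all carried no symbol and had 14957, 13537 and 15552 in animals 1, 2 and 3. The next, also without a symbol, had 14716, 13628 and 15481. A probe set shared by Gm12338 and Cox7c, a subunit of cytochrome oxidase, had a mean of 10918, and one shared by Gm9234 and Ppia, cyclophilin A, had a mean of 10253.

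Some probe sets were low in wild-type animal 3 alone. Of the 26 probe sets outside the range of 5 steady other arrays, 14 were lower in that animal. No such count was made over all 6500, so these 14 have no share beside them. The 26 were picked from the 96 with an SD over 0.5. By another measure, animal 3 was the farthest of the wild-type animals and lower in 25 of the 96. Over all 6500 that held in 20.5%. Nucks1, a chromatin protein, had 186, 136 and 21.2, while another of its probe sets had 1107, 1067 and 1023. Hmces, which shields damaged DNA, had 162, 173 and 47.8. Polb, the repair polymerase, had 240.3, 245 and 106, Pck2, the mitochondrial form of phosphoenolpyruvate carboxykinase, had 145, 126 and 58.5, and Ufd1, of the degradation of ubiquitinated proteins, had 485, 477 and 255. The actin 3' to 5' ratio of this array, 1.20, was the highest of the wild-type arrays, and knockout animals 1, 2 and 3 had 1.22, 1.18 and 1.14. That the knockout animals were not low in these genes follows from how the genes were picked. The part of RNA quality in these values was not tested.

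Akirin2, a nuclear regulator of transcription and proteasome import, had the largest spread among the 500 brightest probe sets. Its values were 3036, 1545 and 1479 in wild-type and 3086, 1593 and 2988 in knockout animals, so that in each group some animals were near the lower value and some near the higher. A second probe set of the gene had 1406, 1443 and 1453.

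Mt1 and Mt2 were both lowest in animal 3. Mt1, like Mt2 a metal-binding protein, had 4125, 4419 and 3364. Nr4a1 and Dusp6 of the activity-induced list had 347, 284 and 544 and 366, 386 and 651, highest in animal 3. In the knockout brains Nr4a1 had 242, 342 and 638. Dusp6 had 480, 672 and 682 there, so knockout animal 2 was close to the 3-month-old.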
